A study of Homo sapiens with 26 samples.

Results

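The transforming growth factor beta (TGF-beta) pathway genes described here are 3 ligand genes (TGFB1, TGFB2 and TGFB3), 3 receptor genes (TGFBR1, TGFBR2 and TGFBR3), the receptor-regulated Smad genes SMAD2 and SMAD3, and the inhibitory Smad genes SMAD6 and SMAD7. Chromatin immunoprecipitation with sequencing (ChIP-seq) was used to map HALO-tagged proteins in BJ fibroblasts, a long-used cell line from human foreskin, after 48 hours of ectopic expression. HALO is a protein tag, and an antibody to it served for every construct. Constructs used here were the forkhead factor FOXA1, its variants FOXA1dbd, FOXA1nhaa and FOXA1rraa (named here as in the labels, which do not spell them out), and HNF4A, a nuclear receptor. All cells therefore carried an added factor, and no list from cells without one was analysed here. A peak belonged to a gene when it overlapped the gene body or the 50 kb on either side of it, here called the locus. This rule found 498 of the 399567 peaks of the 5 full lists. They were 171 of 155652 FOXA1 peaks, 34 of 28831 FOXA1dbd peaks, 113 of 105591 FOXA1nhaa peaks, 89 of 71202 FOXA1rraa peaks and 91 of 38291 HNF4A peaks. The rule used position only.

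The labels give 2 ChIP libraries and 2 input libraries per construct, but 1 peak list per construct was analysed. Differences between constructs therefore have no replicate error, and no test was made. Brackets give 95% Wilson intervals, which reflect the number of peaks counted and no other source of error. Read depth is unknown, so list lengths cannot be set against it. Peak lists hold no expression values, so the labelled cell type could not be checked against marker genes. All coordinates are hg19. Many FOXA1rraa rows have the coordinates of FOXA1 or FOXA1nhaa rows. Whether that list is a separate set of calls, a union of calls or mislabelled is not known from the sources used here, so a FOXA1rraa peak that meets a FOXA1 or FOXA1nhaa peak may not be a further measurement.

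TGF-beta ligands are secreted in a latent form and, once released, bind the type II receptor TGFBR2, which activates the type I receptor TGFBR1. The activated receptor phosphorylates SMAD2 and SMAD3, which enter the nucleus with SMAD4 and act on target genes. SMAD6 and SMAD7 restrain the pathway. In fibroblasts the pathway is known for driving extracellular matrix production and the change to contractile myofibroblasts, while FOXA1 and HNF4A are best known from liver and other endoderm-derived tissues.

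Sequences from the GRCh37 (hg19) reference show the kinds of DNA under these peaks. Capitals mark 3 short core motifs on either strand. The forkhead core is TGTTTAC or TATTTAC, the site type that FOXA factors recognise. The HNF4 core is CAAAGTCCA. The AP-1 core is TGACTCA or TGAGTCA, the site of Jun and Fos family factors. The first 4 sequences come from FOXA1 and variant peaks. They were chosen because the first and the next are the FOXA1 peaks with a forkhead core that all 3 variants overlapped, the third is the highest-scoring FOXA1dbd peak of the loci, and the last is the highest FOXA1 peak of TGFBR3, which has none of the cores.
SMAD3 locus, FOXA1 peak shared with all 3 variants, chr15:67504938-67505137, plus strand: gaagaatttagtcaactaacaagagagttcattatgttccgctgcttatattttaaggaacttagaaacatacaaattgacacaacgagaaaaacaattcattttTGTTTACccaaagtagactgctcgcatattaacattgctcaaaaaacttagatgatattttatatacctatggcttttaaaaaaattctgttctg
TGFBR2 locus, FOXA1 peak shared with all 3 variants, chr3:30762641-30762840, plus strand: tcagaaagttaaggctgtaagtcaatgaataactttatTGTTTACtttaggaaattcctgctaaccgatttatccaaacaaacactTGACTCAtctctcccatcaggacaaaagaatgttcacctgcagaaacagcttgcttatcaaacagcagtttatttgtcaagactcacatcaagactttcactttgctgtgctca
TGFBR2 intron, FOXA1dbd peak, chr3:30700941-30701140, plus strand: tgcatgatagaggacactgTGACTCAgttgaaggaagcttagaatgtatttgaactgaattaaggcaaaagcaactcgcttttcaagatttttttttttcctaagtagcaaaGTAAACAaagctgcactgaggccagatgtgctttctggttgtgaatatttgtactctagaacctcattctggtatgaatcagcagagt
TGFBR3 intron, FOXA1 peak, chr1:92236026-92236225, plus strand: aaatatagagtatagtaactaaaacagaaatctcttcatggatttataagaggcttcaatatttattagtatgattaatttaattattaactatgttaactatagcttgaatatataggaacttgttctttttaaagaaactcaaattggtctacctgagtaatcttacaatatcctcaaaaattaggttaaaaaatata

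The next 4 come from HNF4A peaks. They are the HNF4A peak with an HNF4 core, the highest-scoring HNF4A peak of the loci, the part of an HNF4A peak that lies before an internal SMAD3 start where a FOXA1 peak overlaps it, and the bases just before the TGFB1 start. The windows at both starts end at the base before the start. Of all 8 windows, the pair shared with all 3 variants and the one with an HNF4 core followed the rule for sequences, and the other 5 were chosen after their values were seen.
Upstream of TGFBR2, HNF4A peak with an HNF4 core, chr3:30637871-30638070, plus strand: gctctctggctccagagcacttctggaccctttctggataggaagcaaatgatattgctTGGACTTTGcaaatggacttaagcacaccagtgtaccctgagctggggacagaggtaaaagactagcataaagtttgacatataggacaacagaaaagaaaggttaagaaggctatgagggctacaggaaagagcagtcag
Near a SMAD3 start, highest HNF4A peak, chr15:67360748-67360947, plus strand: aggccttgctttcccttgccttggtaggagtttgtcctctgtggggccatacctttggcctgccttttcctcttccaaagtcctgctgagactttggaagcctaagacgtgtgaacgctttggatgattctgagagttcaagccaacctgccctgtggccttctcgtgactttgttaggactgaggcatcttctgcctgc
SMAD3 internal start, HNF4A and FOXA1 peaks, chr15:67417920-67418053, plus strand: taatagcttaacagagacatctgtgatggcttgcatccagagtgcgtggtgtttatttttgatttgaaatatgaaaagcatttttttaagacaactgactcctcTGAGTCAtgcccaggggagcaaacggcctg
TGFB1 start, HNF4A peak, chr19:41859828-41860027, minus strand: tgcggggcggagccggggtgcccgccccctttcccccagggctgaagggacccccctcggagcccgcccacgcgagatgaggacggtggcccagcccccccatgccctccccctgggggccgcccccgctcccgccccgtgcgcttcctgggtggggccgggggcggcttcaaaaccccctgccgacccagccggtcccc

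The FOXA1 and FOXA1dbd windows shown were rich in A and T. G and C made up 29.5% of the SMAD3 locus window, 37.0% of the TGFBR2 window with 2 cores, 38.0% of the FOXA1dbd window and 23.0% of the TGFBR3 window. The HNF4A windows held 45.5% G and C upstream of TGFBR2, 52.5% near a SMAD3 start, 41.8% at the internal SMAD3 start and 79.5% at the TGFB1 start.

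FOXA1 peaks were dense at 6 of the 10 genes and sparser at the other 4, and HNF4A peaks were dense mainly where FOXA1 peaks were sparse. Per 100 kb of locus, the FOXA1 density was 13.5 at TGFB2, 12.7 at TGFBR1, 12.2 at SMAD2, 10.7 at TGFBR2, 10.4 at TGFBR3 and 9.51 at SMAD3. It was 4.80 at TGFB3, 3.88 at SMAD6, 3.81 at SMAD7 and 2.63 at TGFB1. The median over all 20162 protein-coding genes, each with its own 50 kb flanks, was 4.0, so the first 6 genes lay well above it, TGFB3 just above it and the last 3 below it. The median of the 10 genes was 9.97. The HNF4A density was 12.2 at SMAD7, 9.94 at SMAD3, 9.85 at TGFB1 and 4.98 at SMAD6, compared with a median of 2.29 over all protein-coding genes. It lay between 1.33 and 3.37 at the other 6 genes. SMAD3 was the single gene of the 10 with a density above 9 in both lists.

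**Figure D1:**
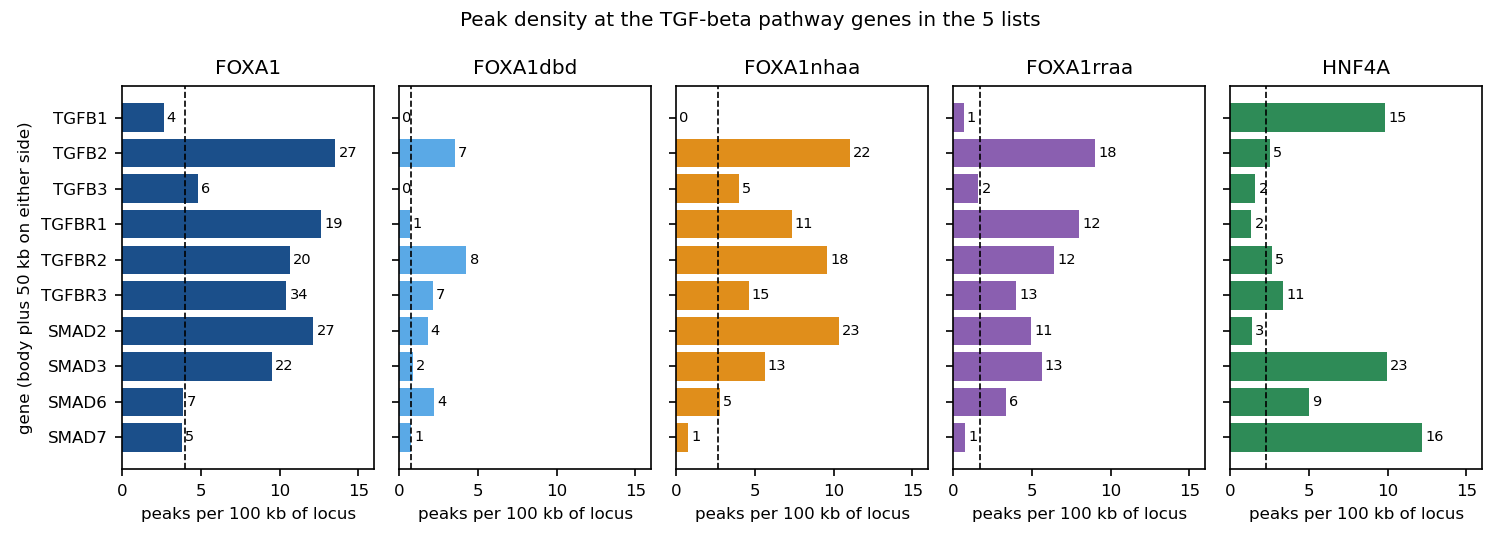
Peaks per 100 kb of locus (gene body plus 50 kb on either side) for each gene in the 5 lists, with the number of peaks beside each bar and the median over all protein-coding genes as a dashed line. FOXA1 bars pass 9 at TGFB2, the 3 receptor genes, SMAD2 and SMAD3, whereas HNF4A bars pass 9 at TGFB1, SMAD3 and SMAD7.

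Every gene had at least 1 FOXA1 peak (10 of 10, against 87.1% of protein-coding genes) and at least 1 HNF4A peak (10 of 10, against 83.5%). FOXA1rraa peaks were likewise found at all 10 genes (against 74.9%). At TGFB2, SMAD2 and SMAD7, however, every FOXA1rraa peak has the coordinates of a FOXA1 or FOXA1nhaa row. FOXA1nhaa peaks were found at 9 genes (against 81.8%), with TGFB1 lacking one, and FOXA1dbd peaks at 8 genes (against 59.6%), with TGFB1 and TGFB3 lacking one. HNF4A peaks outnumbered FOXA1 peaks at 4 of the 10 genes (TGFB1, SMAD3, SMAD6 and SMAD7), against 30.9% of protein-coding genes. This count moves with list length: among the 28831 highest-ranked peaks of each list it was 7 genes, with 32 FOXA1 and 70 HNF4A peaks in all. The share of protein-coding genes at that list length was not computed, and the 30.9% holds for the full lists only. Of those 32 FOXA1 peaks, SMAD2 had 9, TGFB2 and SMAD3 7 each, TGFBR3 5, TGFBR1 2, TGFBR2 and SMAD6 1 each and the other 3 genes none.

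Base composition moved with this split. G and C made up 51.0% of the SMAD7 locus, 50.8% of the TGFB1 locus, 49.6% of the SMAD6 locus and 46.1% of the SMAD3 locus, compared with 39.0% to 43.0% of the other 6. All protein-coding genes were placed in 4 bins of near-equal size by the G and C share of their locus. The median FOXA1 density was 9.62 in the bin lowest in G and C, which holds TGFB2, TGFBR2 and SMAD2. It was 7.07 in the bin of TGFB3, TGFBR1 and TGFBR3 and 3.75 in the bin of SMAD3. In the highest bin, which holds TGFB1, SMAD6 and SMAD7, it was 1.45. The FOXA1 density of TGFB3 lay below the median of its own bin, and the other genes of the 10 lay above theirs. The median HNF4A density was 0.789 in the lowest bin and 5.43 in the highest. HNF4A peaks outnumbered FOXA1 peaks at 83.1% of genes of the highest bin, at 35.5% of the bin of SMAD3 and at 0.496% of the lowest. The part of base composition in the peak counts of the 10 genes was not tested, and the bins were set after the counts were seen.

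The ligand genes differed widely from each other. TGFB2, which encodes a ligand known from heart and eye development, lies on chromosome 1 (218518678 to 218617961, plus strand). It had 27 FOXA1 peaks, 7 FOXA1dbd peaks, 22 FOXA1nhaa peaks, 18 FOXA1rraa peaks and 5 HNF4A peaks. These counts placed its density at the 89.3 percentile of protein-coding genes for FOXA1, 94.3 for FOXA1dbd, 95.2 for FOXA1nhaa and 96.4 for FOXA1rraa, while HNF4A was at 52.7. Of its FOXA1 peaks, 8 overlapped the gene body, 10 lay only upstream and 9 only downstream. Of its 7 FOXA1dbd peaks, 5 had their centres in a stretch downstream of the gene between 116 and 136 kb from the 5′ end, where 6 FOXA1 peaks and 5 FOXA1rraa peaks also had theirs. Its highest FOXA1 peak scored 388 and lay in an intron, at chr1:218547258-218547644.

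TGFB1, which encodes the most widely expressed ligand, lies on chromosome 19 (41807492 to 41859827, minus strand) in a locus with 8 other protein-coding genes. It had 4 FOXA1 peaks, no FOXA1dbd or FOXA1nhaa peak, 1 FOXA1rraa peak and 15 HNF4A peaks. None of the FOXA1 peaks touched the gene body. The highest scored 180 and lay inside AXL, in an intron, at chr19:41762741-41762960, and the other 3 scored between 82 and 86. The HNF4A density was at the 95.6 percentile of protein-coding genes. Of the 15 HNF4A peaks, 10 had their centre within 1000 bp of a transcription start, and for 8 of these the nearest start belonged to another gene (HNRNPUL1, CCDC97 or TMEM91). The annotated TGFB1 body is long because a noncoding transcript extends it past CCDC97. With protein-coding transcripts alone, the locus held 2 FOXA1 peaks and 12 HNF4A peaks.

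TGFB3, the third ligand gene, lies on chromosome 14 (76424440 to 76449354, minus strand) and has the shortest locus, at 125 kb. It had 6 FOXA1 peaks, no FOXA1dbd peak, 5 FOXA1nhaa peaks, 2 FOXA1rraa peaks and 2 HNF4A peaks. The 6 FOXA1 peaks scored between 80 and 170 and lay in introns of the neighbours IFT43 and TTLL5, 1 of them also inside TGFB3. The highest lay at chr14:76414941-76415568, in an A and T rich stretch (28.0% G and C), and was overlapped by a FOXA1nhaa and a FOXA1rraa peak. The densities of TGFB3 lay between the 38.5 and 63.6 percentiles in the 4 lists with a peak.

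All 3 receptor genes had dense FOXA1 peaks. Together they had 73 FOXA1 peaks, 16 FOXA1dbd peaks, 44 FOXA1nhaa peaks, 37 FOXA1rraa peaks and 18 HNF4A peaks in 664 kb. TGFBR2 encodes the type II receptor that binds the ligand, on chromosome 3 (30648093 to 30735634, plus strand). It had 20 FOXA1 peaks, 8 FOXA1dbd peaks, 18 FOXA1nhaa peaks, 12 FOXA1rraa peaks and 5 HNF4A peaks. Its FOXA1dbd density of 4.27 per 100 kb was the highest of the 10 genes and at the 97.1 percentile of protein-coding genes. That rank rests on peaks of the lower part of the list, since in the top 50% TGFBR2 had 2 FOXA1dbd peaks, TGFB2 and TGFBR3 had 4 each and SMAD6 had 3. An intron of TGFBR2 held a site at which peaks of all 5 lists met. The FOXA1 peak there was 1631 bp wide (chr3:30699544-30701174), scored 306 and was the highest of that locus. Within it lay the highest FOXA1dbd peak of all 10 loci, which scored 151 at 8.37-fold enrichment. Its window, shown above, holds a forkhead core and an AP-1 core. The HNF4A peak at the same site (chr3:30701024-30701406, score 213) overlapped only the end of the FOXA1 peak, and its centre was 875 bp from the FOXA1 centre.

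TGFBR1 encodes the type I receptor kinase that phosphorylates SMAD2 and SMAD3, on chromosome 9 (101866320 to 101916474, plus strand). It had 19 FOXA1 peaks, 1 FOXA1dbd peak, 11 FOXA1nhaa peaks, 12 FOXA1rraa peaks and 2 HNF4A peaks. Its gene body alone, 50.2 kb long, was touched by 11 FOXA1 peaks. The median score of its FOXA1 peaks was 85, but a peak in its intron scored 516 (chr9:101873843-101874233). The same row, with the same name, stands in the FOXA1rraa list as the highest peak of the 10 loci in that list, so it is 1 measurement and not 2. Another intron held the highest FOXA1nhaa peak of the loci, scoring 330 at 13.5-fold enrichment (chr9:101887215-101888095). It overlapped a FOXA1 and a FOXA1rraa peak. The single FOXA1dbd peak has the coordinates of a FOXA1 row and lay 49.4 kb beyond the gene, just inside the limit.

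TGFBR3, also called betaglycan, encodes a co-receptor that presents ligand to TGFBR2, on chromosome 1 (92145900 to 92371892, minus strand). It is the longest of the 10 genes, at 226 kb, and had the most FOXA1 peaks, 34, with 7 FOXA1dbd peaks, 15 FOXA1nhaa peaks, 13 FOXA1rraa peaks and 11 HNF4A peaks. Of the 34 FOXA1 peaks, 29 touched the gene body and 5 lay upstream only. None lay in the 50 kb downstream, where the FOXA1dbd, FOXA1nhaa and FOXA1rraa lists had none either and the HNF4A list had 1, with a score of 601. The highest FOXA1 peak scored 406 (chr1:92235825-92236426) and was overlapped by no variant. Its window is the one with 23.0% G and C shown above.

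The receptor-regulated Smad genes were alike in FOXA1 density and unlike in HNF4A density. SMAD2 lies on chromosome 18 (45335328 to 45457517, minus strand) and had 27 FOXA1 peaks, 4 FOXA1dbd peaks, 23 FOXA1nhaa peaks, 11 FOXA1rraa peaks and 3 HNF4A peaks. Within 20 kb of the gene body, from 46.6 to 65.7 kb past the 5′ end, 9 FOXA1 peaks had their centres, the most in any such stretch of the 10 loci. The highest FOXA1 peak of the locus scored 458 and lay there (chr18:45407548-45408260), overlapped by all 3 variants. Untranslated exon sequence of SMAD2 held 6 of the 13 FOXA1 peak centres that lay in untranslated exons, and 7 of 8 such FOXA1nhaa centres. All 3 HNF4A peaks lay within 1000 bp of the 5′ end, with scores of 38, 38 and 70.

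SMAD3 lies on chromosome 15 (67356101 to 67487511, plus strand) and had 22 FOXA1 peaks, 2 FOXA1dbd peaks, 13 FOXA1nhaa peaks, 13 FOXA1rraa peaks and 23 HNF4A peaks. The HNF4A count was at the 99.8 percentile of protein-coding genes, and the HNF4A density, which allows for the length of the locus, at the 95.7 percentile. Of the FOXA1 peaks, 11 lay only downstream of the gene and 10 touched its body, whereas 15 of the HNF4A peaks touched the body, 5 lay upstream and 3 downstream. The highest HNF4A peak of all 10 loci scored 813 at 21.6-fold enrichment (chr15:67360567-67361114), with its centre 725 bp from an annotated start. Its window, shown above, has none of the 3 cores letter for letter, and near matches were not searched. The next highest of SMAD3 scored 629 and lay over a start 1.84 kb past the 5′ end. The highest FOXA1 peak of the 10 loci scored 529 and lay downstream, in an intron of the neighbour AAGAB (chr15:67520279-67521311).

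The inhibitory Smad genes had few FOXA1 peaks and more HNF4A peaks. SMAD7, which blocks the type I receptor, lies on chromosome 18 (46446223 to 46477335, minus strand). It had 5 FOXA1 peaks, 1 FOXA1dbd peak, 1 FOXA1nhaa peak, 1 FOXA1rraa peak and 16 HNF4A peaks. The FOXA1nhaa and FOXA1rraa peaks were the same row in both lists. Of the HNF4A peaks, 10 lay only upstream of the gene, 5 touched its body and 1 lay only downstream, and 7 had their centres within 20 kb around the 5′ end. The strongest scored 534 and lay over a start 1.63 kb past the 5′ end. The HNF4A density of SMAD7 was at the 98.0 percentile of protein-coding genes and its FOXA1 density at the 48.3 percentile.

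SMAD6, which acts mainly on the related bone morphogenetic protein branch, lies on chromosome 15 (66994574 to 67075187, plus strand). It had 7 FOXA1 peaks, 4 FOXA1dbd peaks, 5 FOXA1nhaa peaks, 6 FOXA1rraa peaks and 9 HNF4A peaks. At 4 of its 7 FOXA1 peaks a FOXA1dbd peak overlapped, 2 of them with the coordinates of the FOXA1 row, and at 3 of these 4 all 3 variants did. These 3 sites lay in introns, 28.5, 31.1 and 64.8 kb past the 5′ end, with FOXA1 scores of 62, 209 and 282. The highest lay at chr15:67059214-67059454. A FOXA1nhaa peak with a score of 306 lay 5.53 kb from the nearest FOXA1 centre, further into the gene.

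The order of HNF4A and FOXA1 counts was not equally firm at the 4 genes where HNF4A peaks were more numerous. At TGFB1 and SMAD7 it held with flanks of 0, 10, 50 and 100 kb and in the top 50% of each list. At SMAD6 the gene body alone held 5 FOXA1 and 4 HNF4A peaks, and HNF4A was not ahead with a flank of 10 kb either. At SMAD3 the top 50% of each list held 13 FOXA1 and 12 HNF4A peaks, and HNF4A was not ahead with a flank of 100 kb either. Among the 28831 highest-ranked peaks of each list HNF4A was ahead at all 4 genes, with 10 HNF4A and 0 FOXA1 peaks at TGFB1, 20 and 7 at SMAD3, 6 and 1 at SMAD6, and 13 and 0 at SMAD7. It was then also ahead at TGFB3 (1 and 0), TGFBR2 (4 and 1) and TGFBR3 (9 and 5). Against the down-sampled FOXA1 list, which like the HNF4A list has 38291 peaks, HNF4A was ahead at 6 genes, the 4 with TGFBR2 and TGFBR3. The share of protein-coding genes with HNF4A ahead was not computed for any of these settings other than the full lists with 50 kb flanks.

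**Figure D2:**
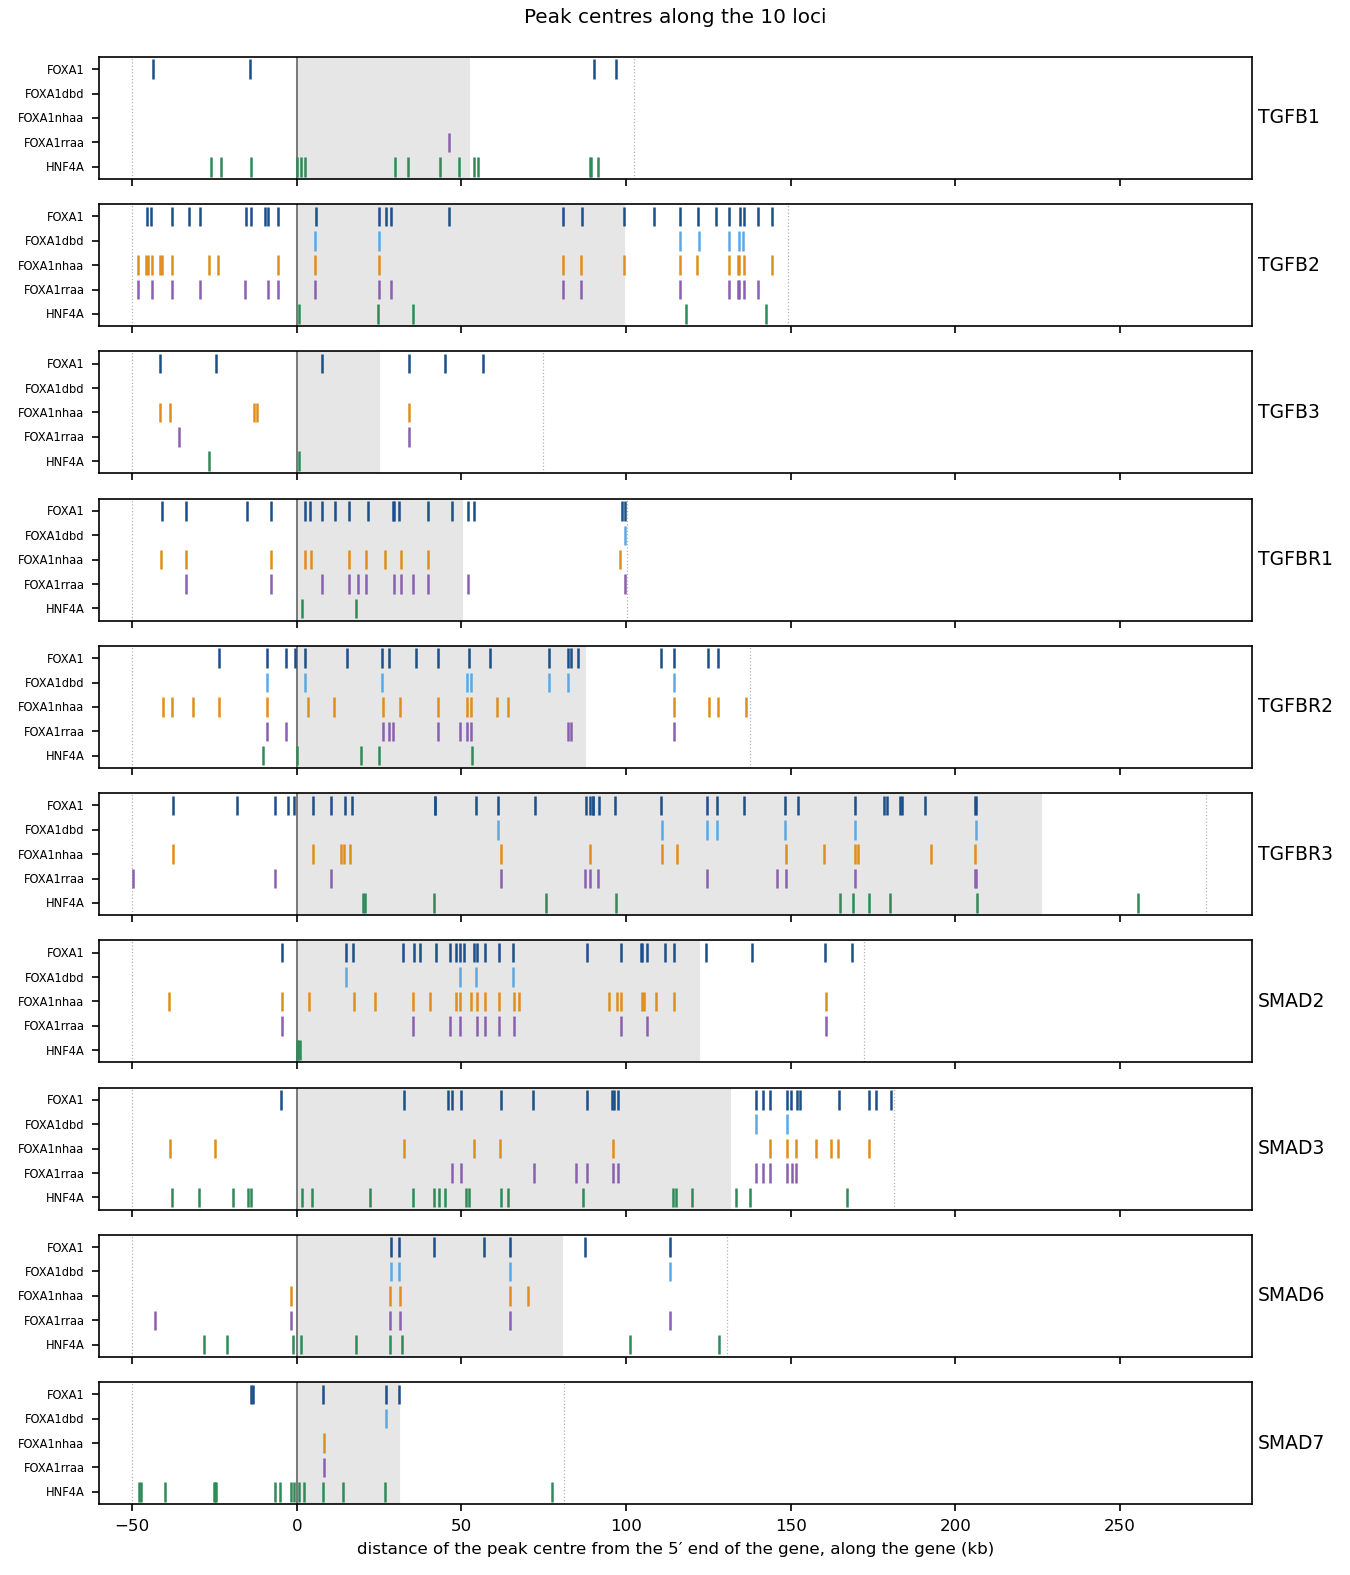
Peak centres along the 10 loci by distance from the 5′ end of the gene in kb, with the gene body shaded, the 50 kb limits dotted and 1 row of ticks per list. FOXA1 ticks fill the TGFB2, SMAD2 and TGFBR3 rows, whereas HNF4A ticks gather around the 5′ end of SMAD7 and spread along TGFB1 and SMAD3.

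The peaks nearest the 50 kb limit show how it falls. The last FOXA1 peak inside lay 49.4 kb from TGFBR1 with a score of 70, and the first outside lay 52.2 kb from TGFB2 with a score of 253. For HNF4A they lay 47.6 kb from SMAD7 (score 64) and 52.0 kb from TGFB2 (score 100). With the gene bodies alone, 101 FOXA1, 64 FOXA1nhaa, 54 FOXA1rraa and 54 HNF4A peaks remained.

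HNF4A peaks stood at a start of every one of the 10 genes. A peak within 1000 bp of any annotated transcription start of the gene was found at 10 of 10 genes for HNF4A, against 48.1% of protein-coding genes. The 10 genes have more annotated starts than most, with a median of 7.5 against 5. Among protein-coding genes with 4 or more starts, a comparison added after the data were seen, the share was 59.5%. With the 5′ end of each gene as the only start, 7 of 10 genes had an HNF4A peak there, and with the top 50% of the list 5 of 10 had one at any start. The share of protein-coding genes was not computed under either rule, so these counts cannot be set against a background.

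The HNF4A peaks at starts varied in strength. SMAD3 had 5, with scores of 813, 629, 198, 180 and 60, and SMAD7 had 4, with scores of 534, 248, 108 and 73. TGFB1 had 1 with a score of 376 over its 5′ end and 1 with a score of 64 inside the gene. TGFBR1 had 1 with a score of 207. At TGFBR3 the pair, scoring 130 and 83, stood at starts about 20 kb inside the gene and not at its 5′ end. The remaining peaks, at TGFB2, TGFB3, TGFBR2, SMAD2 and SMAD6, scored between 38 and 98.

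FOXA1 peaks stood at a start of 5 of the 10 genes (TGFBR2, TGFBR3, SMAD2, SMAD3 and SMAD7), against 26.9% of protein-coding genes. FOXA1nhaa peaks did so at 4 genes (against 21.6%), FOXA1rraa peaks at 3 (against 16.4%) and FOXA1dbd peaks at none (against 8.14%). Among protein-coding genes with 4 or more starts the shares were 35.8% for FOXA1, 29.6% for FOXA1nhaa, 22.9% for FOXA1rraa and 11.3% for FOXA1dbd. The 3 FOXA1rraa peaks, at TGFBR2, SMAD2 and SMAD7, are rows of the FOXA1nhaa list too. Most of these starts were internal. At the 5′ end of the gene, FOXA1 peaks were found at TGFBR2 (chr3:30647485-30647616, score 152) and TGFBR3 (chr1:92372479-92372858, score 62), and neither was overlapped by a variant. FOXA1 peaks stood at internal starts of SMAD2 (score 285, 35.4 kb past the 5′ end), SMAD3 (score 73, 62.0 kb), SMAD7 (score 66, 8.16 kb) and TGFBR3 (scores 188 and 105, both at 178 kb). At the TGFBR2 5′ end the HNF4A peak (chr3:30647754-30648228, score 74) lay beside the FOXA1 peak without touching it.

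For starts of any gene, the share of peaks within 1000 bp was not set apart from the whole lists by these intervals, some of them wide. The centre lay within 1000 bp of a start for 35.2% of the HNF4A peaks of the loci (26.1 to 45.4), against 38.4% of the list. The share was 9.36% of the FOXA1 peaks (5.84 to 14.7), against 8.87% of the list. It was 2.94% for FOXA1dbd (against 9.27%), 7.08% for FOXA1nhaa (against 8.56%) and 4.49% for FOXA1rraa (against 8.65%), with each list share inside the interval of the loci. Median distances to any start have no like background. The rule keeps only peaks in or near the 10 genes, whereas the list medians have no such limit. Medians for the loci of other protein-coding genes were not computed, so a shorter median here is not shown to be particular to these genes. The medians were 6.606 kb for FOXA1 (against 9.622 kb in the list), 9.0655 for FOXA1dbd (against 9.998) and 6.926 for FOXA1nhaa (against 10.308). For FOXA1rraa the median was 7.745 kb (against 9.704), and for HNF4A it was longer in the loci, at 3.745 kb (against 2.683). Most FOXA1 peaks of the loci, 108 of 171, had their centre in an intron of a protein-coding gene, and none had it in a coding exon. Among HNF4A peaks 32 of 91 lay in such introns. The rule itself takes in gene bodies, and those of the 10 genes make up 47.5% of the locus length. Intron and coding exon shares of the whole lists and of the locus sequence were not computed, so these counts have no background.

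FOXA1 and HNF4A peaks met at only 4 places in the 10 loci. These were 4 of 171 FOXA1 peaks, or 2.34% (0.913 to 5.86), against 1.68% of the FOXA1 list, and 4 of 91 HNF4A peaks, or 4.40% (1.72 to 10.8), against 6.76% of the HNF4A list. They lay in an intron of TMEM91 upstream of TGFB1 (chr19:41873640-41874150, HNF4A score 167), in the TGFBR2 intron where all 5 lists met, at the internal SMAD3 start (chr15:67417920-67418279, HNF4A score 198) and in an intron of SMAD7 (chr18:46450291-46450489, HNF4A score 73). At the SMAD3 start a FOXA1nhaa peak overlapped too, and the printed window holds an AP-1 core and no forkhead core. At the SMAD7 intron a FOXA1dbd peak overlapped, and the FOXA1 peak there was the highest of that locus, with a score of 161.

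The variants covered the FOXA1 peaks of the 10 loci in about the shares seen over the whole list. A FOXA1dbd peak overlapped 33 of 171 FOXA1 peaks, or 19.3% (14.1 to 25.9), against 17.3% of the list. A FOXA1nhaa peak overlapped 68, or 39.8% (32.7 to 47.2), against 39.7%. A FOXA1rraa peak overlapped 74, or 43.3% (36.1 to 50.8), against 39.9%. Each list share lies inside the interval of the loci. The FOXA1rraa share is not independent of the FOXA1 and FOXA1nhaa lists. Of the 89 FOXA1rraa rows in the loci, 30 are FOXA1 rows and 49 are FOXA1nhaa rows with the same coordinates. Another 10 stand in that list alone. Names beginning with Nonspecific_FOX were found at 10 of the 89 rows. Without the 30 FOXA1 rows the FOXA1rraa share was 25.7%, and each of the 44 FOXA1 peaks still met was also met by FOXA1nhaa. Neither share can therefore be read as a separate measure of FOXA1rraa. Among the 28831 highest-ranked peaks of each list, FOXA1dbd overlapped 31.3% and FOXA1nhaa 15.6% of 32 FOXA1 peaks, and FOXA1dbd overlapped 5.56% of the 36 FOXA1 peaks of a deposited down-sampled list.

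Looked at from the variants, all 34 FOXA1dbd peaks overlapped a FOXA1 peak, against 96.2% of the FOXA1dbd list. Of these 34, 5 have the coordinates of a FOXA1 row (2952 in the list), so their overlap is not a separate measurement. Of the FOXA1rraa peaks 76 of 89 did, or 85.4%, against 86.8% of that list, and of the FOXA1nhaa peaks 71 of 113, or 62.8% (53.6 to 71.2), against 58.4% of that list. The 42 FOXA1nhaa peaks outside FOXA1 peaks were spread over 9 genes, with 9 each at TGFBR2 and SMAD2, 6 at TGFBR3 and 5 each at TGFB2 and SMAD3. Their median score was 83 and the median score of the 71 others was 95.

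**Figure D3:**
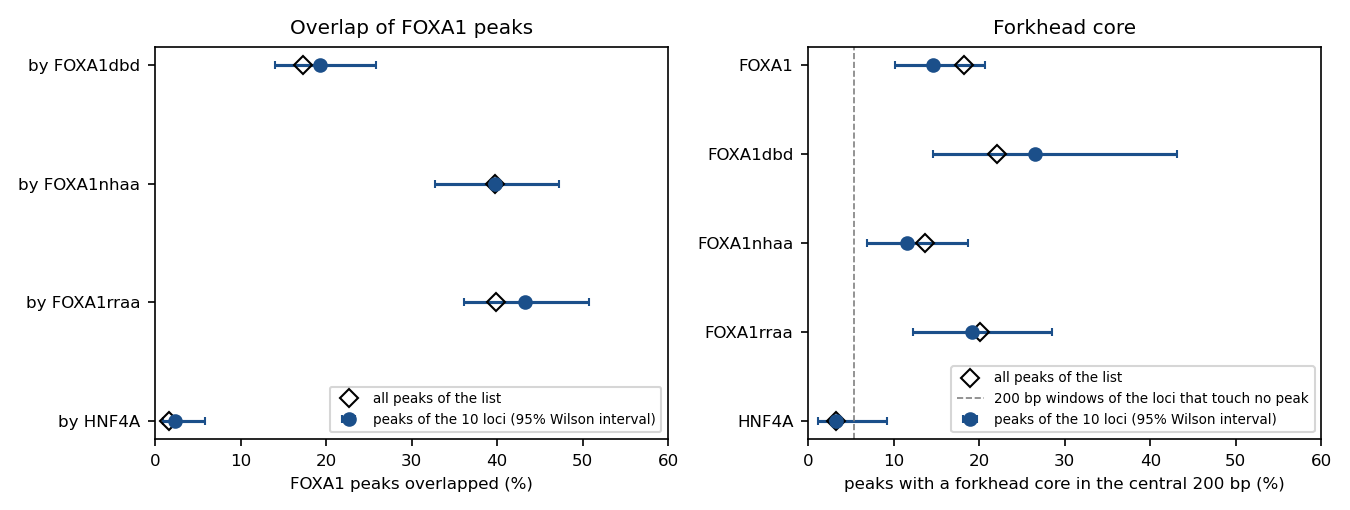
Left, share of the FOXA1 peaks of the 10 loci overlapped by each other list, and right, share of peaks of each list with a forkhead core in the central 200 bp. Points are the loci with 95% Wilson intervals and diamonds are the whole lists, and each diamond lies within the interval of its point.

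Sorted by which variants overlapped them, 68 of the 171 FOXA1 peaks (39.8%) met none, against 41.5% of the list, and 20 (11.7%, 7.70 to 17.4) met all 3, against 8.21%. A further 24 met FOXA1nhaa and FOXA1rraa without FOXA1dbd (against 16.8% of the list), 24 met FOXA1rraa alone (against 11.7%) and 22 met FOXA1nhaa alone (against 12.7%). FOXA1dbd alone was met by 5 (against 3.89%), FOXA1dbd and FOXA1rraa by 6 (against 3.17%) and FOXA1dbd and FOXA1nhaa by 2 (against 2.04%). The 24 peaks met by FOXA1rraa alone met it only at rows with the coordinates of FOXA1 rows. So did the 6 met by FOXA1dbd and FOXA1rraa, and neither class shows a separate overlap with FOXA1rraa. Nor can the classes that met both FOXA1nhaa and FOXA1rraa, with or without FOXA1dbd, be read as separate overlaps. All 49 FOXA1rraa peaks of the loci that met a FOXA1nhaa peak have the coordinates of a FOXA1nhaa row. With FOXA1 rows taken out of the FOXA1rraa list, 92 peaks (53.8%) met none, and in the top 50% of each list 4.71% met all 3. The median score was 98 for the peaks met by none and 207 for those met by all 3. The genes differed in this makeup. All 4 FOXA1 peaks of TGFB1 and 4 of 5 of SMAD7 met no variant, as did 18 of 34 at TGFBR3. At TGFB2, 7 of 27 met none and 6 met all 3. At TGFBR1, 6 of 19 met none and none met all 3.

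Overlap by a variant moved with the score of the FOXA1 peak. Among the 86 highest-scoring FOXA1 peaks, FOXA1dbd overlapped 27.9% (19.5 to 38.2), FOXA1nhaa 53.5% (43.0 to 63.7) and FOXA1rraa 59.3% (48.7 to 69.1). Among the other 85 the shares were 10.6% (5.67 to 18.9), 25.9% (17.8 to 36.1) and 27.1% (18.8 to 37.3). The FOXA1rraa shares include FOXA1 peaks that met only a row with their own coordinates. The higher-scoring peaks were wider, with a median of 389 bp against 225 bp, and the part of width in the overlap was not tested. HNF4A overlapped 2 FOXA1 peaks in each set.

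**Figure D4:**
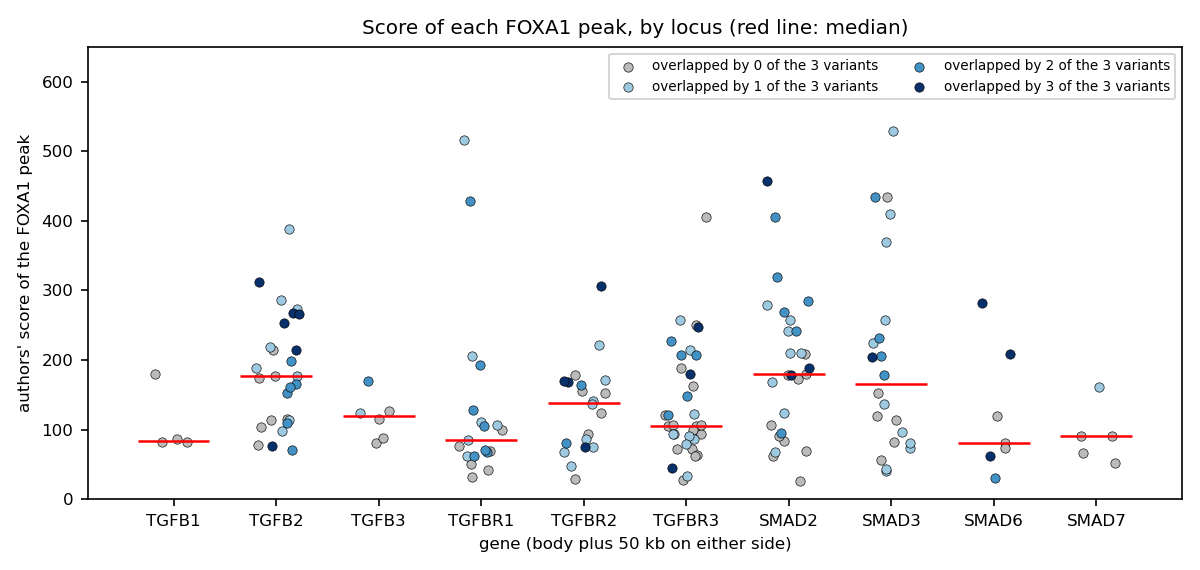
Authors' score of each of the 171 FOXA1 peaks by gene, shaded by how many of the 3 variants overlapped it, with the median of each gene as a red line. FOXA1rraa rows with the coordinates of a FOXA1 row were counted as overlaps. Medians run from 81 at SMAD6 to 180 at SMAD2, and peaks met by no variant sit mostly low, with exceptions at 406 in TGFBR3 and 434 in SMAD3.

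Scores of the peaks in the 10 loci resembled those of the lists they came from. The median FOXA1 score was 124 both in the loci and in the list. It was 66 in the loci and 61 in the list for FOXA1dbd, and 91 and 89 for FOXA1nhaa. FOXA1rraa had 104 and 106, and HNF4A had 94 and 99. Among the loci, the median FOXA1 score was highest at SMAD2 (180), TGFB2 (177) and SMAD3 (166). It was lowest at SMAD6 (81), TGFB1 (84) and TGFBR1 (85), so TGFBR1 had many FOXA1 peaks of low score. These scores are the authors' and rank peaks within a list only.

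The forkhead core stood in the central 200 bp of 25 of 171 FOXA1 peaks, or 14.6% (10.1 to 20.7), against 18.2% of the list. It stood in 9 of 34 FOXA1dbd peaks, or 26.5% (14.6 to 43.1), against 22.1% of the list. The share was 11.5% of FOXA1nhaa peaks (against 13.6%), 19.1% of FOXA1rraa peaks (against 20%) and 3.30% of HNF4A peaks (against 3.25%). Windows of 200 bp in the same loci that touched no peak held it in 465 of 8636 cases, or 5.38% (4.93 to 5.88). The FOXA1 interval lies above this share, but among the 28831 highest-ranked FOXA1 peaks 6.25% of the 32 in the loci held the core. Of the 25 FOXA1 peaks with the core, 4 each lay at TGFB2, TGFBR1, TGFBR3 and SMAD2, 3 each at TGFBR2 and SMAD3, and 1 each at TGFB3, SMAD6 and SMAD7. TGFB1 had none. The core with its letters reversed (CATTTAT or CATTTGT), which is of like base composition, stood in 17.5% of FOXA1 peaks (12.6 to 23.9), against 19.8% of the list, and in 9.92% of the windows without a peak. It stood in 20.6% of FOXA1dbd peaks (against 18.1%), 13.3% of FOXA1nhaa peaks (against 16.8%), 12.4% of FOXA1rraa peaks (against 18.8%) and 5.49% of HNF4A peaks (against 4.56%). The reversed letters were thus the more frequent of the pair in FOXA1, FOXA1nhaa and HNF4A peaks and the forkhead core in FOXA1dbd and FOXA1rraa peaks, with overlapping intervals in each list. In the central 100 bp the order in FOXA1 peaks turned, with the forkhead core in 9.36% and the reversed letters in 8.77%. Relative to the windows without a peak, the forkhead share of FOXA1 peaks was 2.72 times as high and the reversed share 1.77 times.

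The AP-1 core stood in 11.1% of FOXA1 peaks of the loci (7.23 to 16.7), against 7.99% of the list, and in 26.5% of FOXA1dbd peaks (14.6 to 43.1), against 18.6%. It stood in 8.85% of FOXA1nhaa peaks (4.88 to 15.5), against 7.5%, in 10.1% of FOXA1rraa peaks (5.41 to 18.1), against 8.75%, and in 14.3% of HNF4A peaks (8.54 to 22.9), against 18.2%. Windows without a peak held it in 3.16% of cases (2.81 to 3.55), below each of these intervals. The HNF4 core stood in 1 of 91 HNF4A peaks and 1 of 171 FOXA1 peaks, against 0.992% and 0.261% of the lists. The palindrome GTCTAGAC, a Smad-binding element searched on both strands, stood in the centre of none of the 498 peaks, and in 13 of the 8636 windows without a peak. It stood in 0.0919% of the FOXA1 list, 0.0971% of the FOXA1dbd list, 0.0928% of the FOXA1nhaa list, 0.0801% of the FOXA1rraa list and 0.157% of the HNF4A list. Its absence here says only that these letters are not in the central 200 bp.

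**Figure D5:**
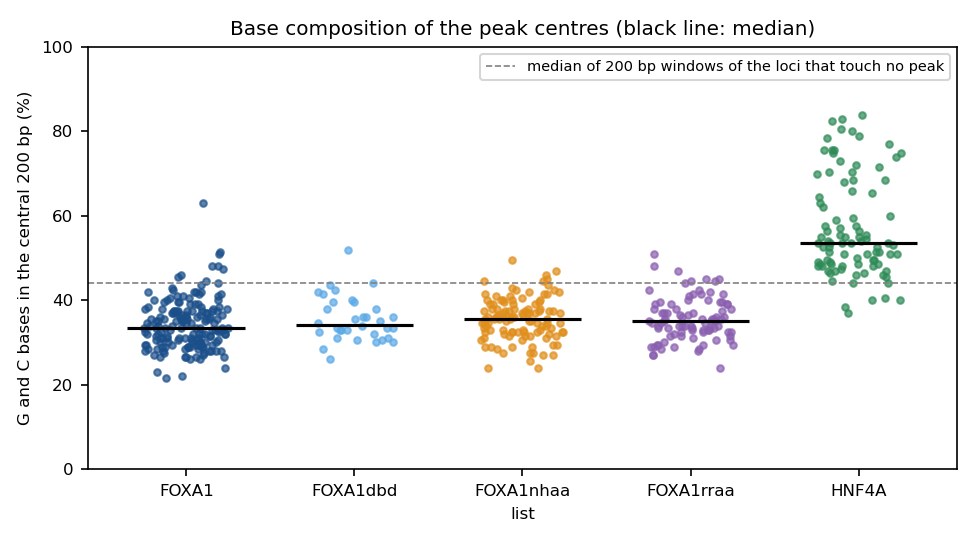
Share of G and C bases in the central 200 bp of each peak of the 10 loci, by list, with the median as a black line and the median of windows without a peak dashed at 44. Medians are 33.5 to 35.5 in the FOXA1 list and its variants and 53.5 in the HNF4A list.

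FOXA1 and its variants stood on A and T rich DNA and HNF4A on G and C rich DNA in these loci. The median G and C share of the central 200 bp was 33.5% for FOXA1 peaks, 34.3% for FOXA1dbd peaks, 35.5% for FOXA1nhaa peaks and 35% for FOXA1rraa peaks. It was 53.5% for HNF4A peaks and 44% for windows of the loci without a peak. In the whole lists the medians were 32.5% for FOXA1 and 52.5% for HNF4A, so the loci followed the lists. The highest single-gene median among HNF4A peaks was 78.5%, at the 3 SMAD2 peaks around the 5′ end.

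Other genes of the pathway were counted from a list of 42, in the same way. At least 1 FOXA1 peak was found at 41 of the 42 (97.6%, against 87.1% of protein-coding genes) and at least 1 HNF4A peak at 39 (92.9%, against 83.5%). Their median density was 9.76 FOXA1 peaks per 100 kb, against 4.0 over all protein-coding genes, and 2.3 HNF4A peaks, against 2.3. By role, the median FOXA1 density was 8.29 for 12 genes of ligands and ligand activation, 7.35 for 8 receptors, 9.60 for 12 Smads and regulators and 11.8 for 10 targets. SMURF2, a ubiquitin ligase that acts on Smads and receptors, had 66 FOXA1 peaks. ITGAV, an integrin subunit that releases latent ligand, had 54 FOXA1 peaks and 2 HNF4A peaks. FURIN, the protease that processes ligand precursors, had no FOXA1 peak and 11 HNF4A peaks, and LTBP3, a latent ligand binding protein, had 2 and 27. Among targets, COL1A2 had 30 FOXA1 peaks and 1 HNF4A peak, while COL1A1, the partner chain of the same collagen, had 7 and 19. These 6 genes were chosen after their values were seen.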

How the data were processed

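The submitters' processing notes name Bowtie2 2.3.4.1, Picard, GATK 4.2.6.0, bedtools 2.27.1, MACS2 2.2.7.1, deepTools 3.5.0 and the build hg19, without saying how each was used. The sources used here do not give whether the libraries of a construct were pooled before peaks were called. The deposited lists give a score for each peak, and those of the 4 constructs other than FOXA1 also give a fold enrichment and a −log10 q-value, all made by the authors. FOXA1 peaks were ranked by score and the others by −log10 q-value. Rows with the same coordinates in a list were counted once, and peaks sharing at least 1 bp were called overlapping. Genes, exons and starts came from GENCODE 44 lifted to GRCh37, and sequence from GRCh37. Motifs were searched in the 200 bp centred on the summit, or on the midpoint where a summit was not listed (FOXA1) or fell outside its row. Python 3.11.15, pandas 2.3.3, numpy 2.4.6, pysam 0.24.0 and matplotlib 3.10.9 were used, and the counting code was tested on simulated data. The 10 genes, the list of 42 other genes and the motifs were chosen with earlier results of these data known. Sites named are the highest FOXA1 peak of each locus, the highest peak of each other list, peaks within 1000 bp of a start of the 10 genes and HNF4A peaks overlapping FOXA1 peaks. Any other site or gene named was chosen after its values were seen. Left out were the 6 samples of tagged histone H2B.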

Additional observations from a re-analysis of the deposited data

How the results depend on the processing

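Peak counts, genes with a peak at a start, shares of the forkhead, reversed and AP-1 cores, overlaps with FOXA1 and FOXA1 peaks met by none or all 3 variants were recomputed with other flanks, thresholds, overlap rules and gene models. The other cores, base composition, other variant classes, scores, shares near any start, values over all protein-coding genes and the 42 other genes were not. Of 389 alternative values, 320 stayed within the 1.5-fold range of a count or the 95% interval of a share, and the other 69 follow. The 320 include values that a setting could not change, so their number does not measure stability. Examples are core shares under another overlap rule, and FOXA1 rows joined by name, since no name in the loci stood on several rows. No difference was tested, but some orders turned. Among the 28831 highest-ranked peaks of each list the loci held fewer FOXA1 than HNF4A peaks (32 and 70), and FOXA1dbd overlapped more FOXA1 peaks than FOXA1nhaa. The down-sampled FOXA1 list, which like the HNF4A list has 38291 peaks, also had fewer peaks in the loci than HNF4A (36 and 91). Of 425 values for single genes, 146 moved past 1.5-fold, 128 of them to fewer peaks and 18 to more. The cause of each shift was not tested beyond what fewer peaks or shorter windows give by construction. With gene bodies alone, the loci held 101 FOXA1, 64 FOXA1nhaa, 54 FOXA1rraa and 54 HNF4A peaks, and a flank of 10 kb left 70 FOXA1nhaa peaks and the AP-1 core in 7.94% of HNF4A peaks. In the top 50% of each list there were 85 FOXA1, 19 FOXA1dbd, 59 FOXA1nhaa, 43 FOXA1rraa and 40 HNF4A peaks. Genes with a peak at a start then numbered 3 for FOXA1, 2 for FOXA1nhaa and 5 for HNF4A. The forkhead core stood in 9.30% of FOXA1rraa peaks, and 68.4% of FOXA1dbd and 52.5% of FOXA1nhaa peaks overlapped FOXA1. All 3 variants met 4.71% of FOXA1 peaks.

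Among the 28831 highest-ranked peaks of each list, the loci held 32 FOXA1, 32 FOXA1nhaa and 36 FOXA1rraa peaks. Genes with a peak at a start numbered 1 for FOXA1, 1 for FOXA1nhaa and 1 for FOXA1rraa. The forkhead core stood in 6.25% of FOXA1 and 8.33% of FOXA1rraa peaks, and the reversed letters in 21.9% of FOXA1nhaa peaks. FOXA1 peaks were overlapped in 31.3% of cases by FOXA1dbd and in 15.6% by FOXA1nhaa, and FOXA1 was overlapped by 32.4% of FOXA1dbd, 12.5% of FOXA1nhaa, 33.3% of FOXA1rraa and 1.43% of HNF4A peaks. The down-sampled FOXA1 list had 36 peaks in the loci, 1 gene with a peak at a start and the forkhead core in 22.2%, with the reversed letters in 11.1%. Of its peaks 52.8% met no variant and 2.78% all 3. Its peaks were overlapped in 5.56% of cases by FOXA1dbd, 27.8% by FOXA1nhaa, 30.6% by FOXA1rraa and 0% by HNF4A, and 5.88% of FOXA1dbd, 8.85% of FOXA1nhaa, 12.4% of FOXA1rraa and 0% of HNF4A peaks overlapped them.

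Without its FOXA1 rows the FOXA1rraa list had 59 peaks in the loci, which overlapped 25.7% of FOXA1 peaks, and 53.8% of FOXA1 peaks met no variant. With centres within 200 bp as the rule, FOXA1nhaa met 31.6% of FOXA1 peaks, no variant met 47.4%, and 47.8% of FOXA1nhaa and 71.9% of FOXA1rraa peaks met FOXA1. In the central 100 bp the forkhead core stood in 9.36% of FOXA1, 6.19% of FOXA1nhaa, 11.2% of FOXA1rraa and 1.10% of HNF4A peaks. The reversed letters stood in 8.77% of FOXA1, 8.82% of FOXA1dbd and 6.19% of FOXA1nhaa peaks, and the AP-1 core in 7.02% of FOXA1 and 4.40% of HNF4A peaks. Within 2500 bp of a start, 1 gene had a FOXA1dbd, 8 a FOXA1nhaa and 7 a FOXA1rraa peak. With the 5′ end as the only start, 2 genes had a FOXA1, 0 a FOXA1nhaa and 0 a FOXA1rraa peak. No paired analysis was possible because the lists carry no replicate and there is 1 list per construct. The unknown read depth limits every comparison of counts between lists, and a gene without a peak is not shown to lack binding.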
